A study of Mus musculus with 6 samples.

Results

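The osteoclast dissolves bone mineral by pumping protons into a sealed space beneath the cell. The genes described here build and serve that pump, and 34 were listed. They comprise the membrane (V0) and catalytic (V1) sectors of the vacuolar H+-ATPase, its accessory subunits, the chloride transporters of acidic organelles, carbonic anhydrase II with the anion exchanger that removes its bicarbonate, and 2 proteins needed to build the ruffled border. Of the 34, 33 were measured by a probe set of their own among 19938 genes so measured, each read through its brightest such probe set. Atp6v0c, which encodes the proteolipid ring subunit, had none and carries no value.

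Expression was measured in bone marrow-derived macrophages (BMMs), which are grown from mouse marrow with M-CSF and form osteoclasts under RANKL. The cells came from tibiae of 9-week-old mice, and the methods name female C57BL animals. Both groups were kept for 24 h in M-CSF at 100 ng/ml with RANKL at 50 ng/ml. The vehicle group (3 arrays) received nothing more, and the rGDF11 group (3 arrays) also received 100 ng/ml recombinant GDF11, a secreted protein of the TGF-β superfamily. The replicates are called biological, with no word on whether each is a different mouse, and the p-values therefore rest on the spread among these samples, which may be technical. The arrays read the RNA of a culture in bulk, and its mixture of cells at 24 h is not given. Fewer cells of a type and less RNA per cell therefore cannot be told apart.

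The pump is a rotary motor. The V1 sector, in the cytosol, splits ATP, and the V0 sector, in the membrane, carries protons across. Several subunits exist as isoforms. The osteoclast is known for the a3 subunit, encoded by Tcirg1, and the d2 subunit, encoded by Atp6v0d2, whereas a1, a2 and d1 serve lysosomes, endosomes and other acidic compartments of most cells. Loss of Tcirg1, Clcn7, Ostm1, Car2, Plekhm1 or Snx10 is a known cause of osteopetrosis, in which bone is not resorbed.

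With rGDF11, 2 of the 33 genes rose and 8 fell, and 23 did not pass the test (limma, Benjamini-Hochberg adjusted p under 0.05 over 23410 probe sets). Atp6v0d2 rose 3.0-fold and Car2, which encodes carbonic anhydrase II, rose 2.53-fold from a level below the median of the arrays. Atp6v0a1, Plekhm1, Clcn7, Atp6v0d1, Atp6v1a, Ostm1, Atp6ap1 and Atp6ap2 fell by between 1.84-fold and 1.18-fold. Among all probe sets tested 16.0% passed, 7.31% as higher and 8.64% as lower. The median log2 fold change was −0.06 over the 33 genes and 0.02 over all probe sets tested. Of the 33 genes, 7 lay below the median level of 6.15 (log2). Of the 26 above it, 1 rose and 8 fell, where 12.1% of all probe sets above the median rose and 15.1% fell. The 3 rGDF11 values lay wholly apart from the 3 vehicle values for 17 genes, 4 of them higher and 13 lower. That separation was seen in 32.9% of all probe sets tested, 16.4% higher and 16.5% lower. Of the 17 genes, 16 lay above the median level, and the share of separation among probe sets above that level was not computed. At the threshold named in the methods (1.5-fold, with P under 0.01 before adjustment), Atp6v0d2 and Car2 were higher and Atp6v0a1 was lower, where 2.06% of all probe sets were higher and 2.96% lower. The study itself displays genes associated with osteoclastogenesis from these same arrays, so a rise of known osteoclast genes here is not separate evidence.

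**Figure D1:**
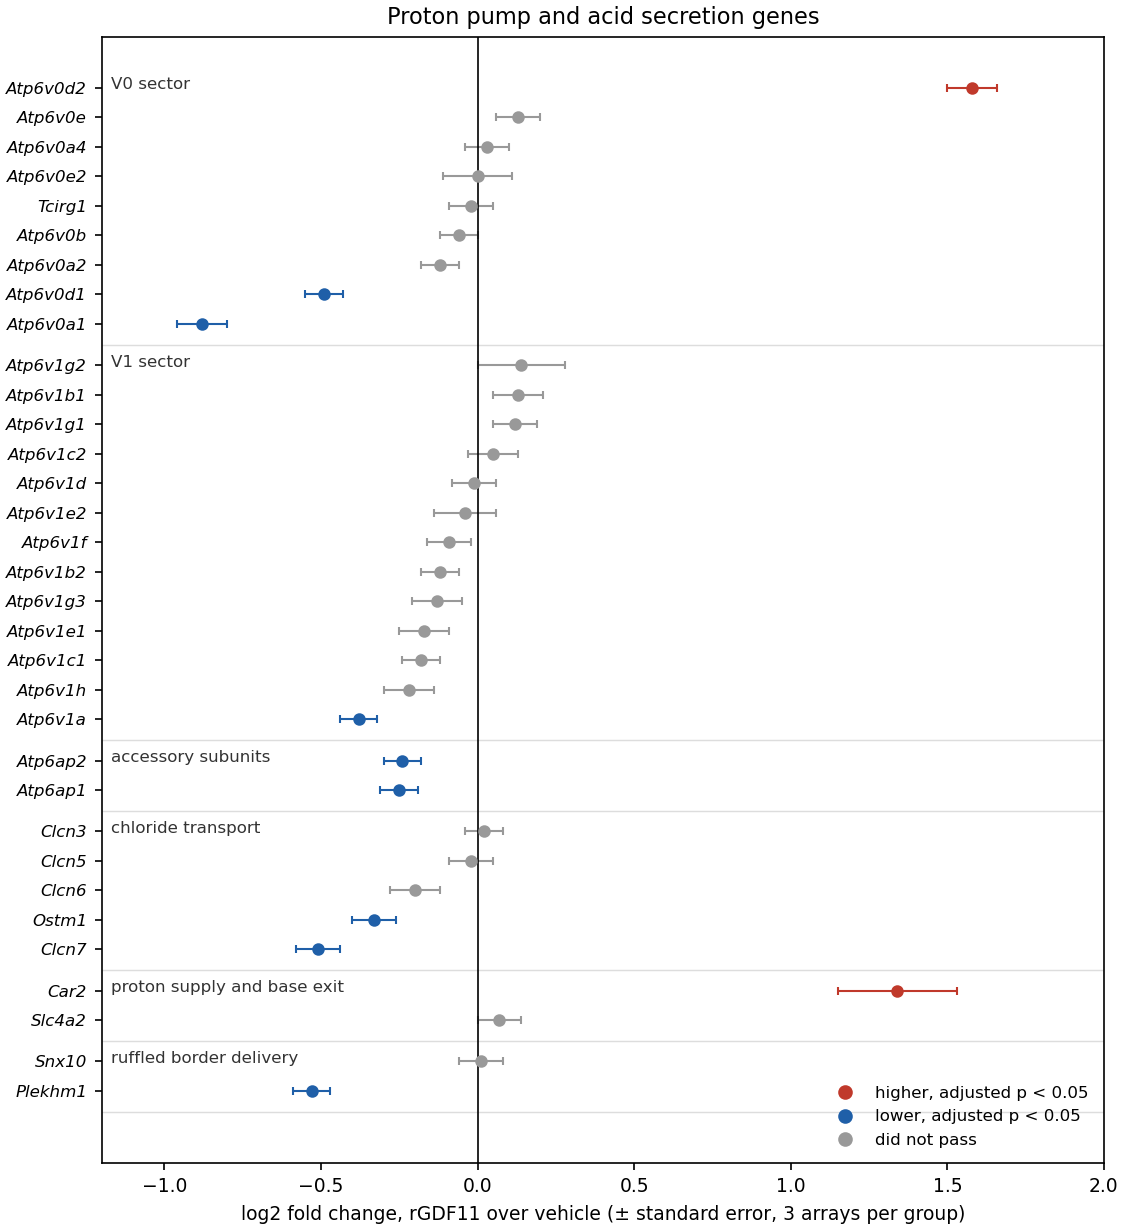
Log2 fold change (rGDF11 over vehicle) of the 33 measured genes with its standard error, 3 arrays per group, grouped by role. Red points rose and blue points fell at an adjusted p under 0.05. Atp6v0d2 (1.58) and Car2 (1.34) stand far to the right, whereas the V1 genes lie between −0.38 and 0.14.

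Within the V0 sector the d isoforms changed in opposite directions. Atp6v0d2, the osteoclast d subunit that is also needed for fusion of precursors, read 9.10, 9.08 and 8.97 on the vehicle arrays and 10.49, 10.71 and 10.69 on the rGDF11 arrays (log2 level). All the rGDF11 values were higher than every vehicle value by more than 1 log2 unit, and the change was 1.58 (SE 0.08, adjusted p = 2.35e-05 by limma, 95% interval 1.40 to 1.77). It ranked 40 among 23410 probe sets ordered by rise. Its housekeeping counterpart Atp6v0d1 went the other way, from 11.03, 11.05 and 11.04 to 10.60, 10.53 and 10.52. The vehicle values were nearly identical and the groups did not overlap. The change was −0.49 (SE 0.06, adjusted p = 0.00104).

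The a subunit, which anchors the pump in a given membrane, has 4 isoforms. Atp6v0a1, abundant in neurons and present on lysosomes of many cells, fell furthest of all 33 genes, from 11.07, 11.06 and 11.03 to 10.26, 10.23 and 10.04. Its fall was 1.84-fold (log2 −0.88, SE 0.08, adjusted p = 0.000199). Tcirg1, which encodes the a3 subunit of the ruffled border, read 10.82, 10.80 and 10.93 with vehicle and 10.81, 10.80 and 10.88 with rGDF11. The groups overlapped almost completely, and the interval of the change ran from −0.17 to 0.13 (log2 −0.02, adjusted p = 0.887), so a rise of the size seen for Atp6v0d2 lay outside it. Atp6v0a2, a Golgi and endosome isoform, read 9.30, 9.31 and 9.39 with vehicle and 9.22, 9.22 and 9.21 with rGDF11. Those groups did not overlap but the change of −0.12 did not pass (adjusted p = 0.261), and the other probe set of the gene gave 0.15 (adjusted p = 0.563), which has the opposite sign. Atp6v0a4, the kidney isoform, had a change of 0.03 (adjusted p = 0.817).

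**Figure D2:**
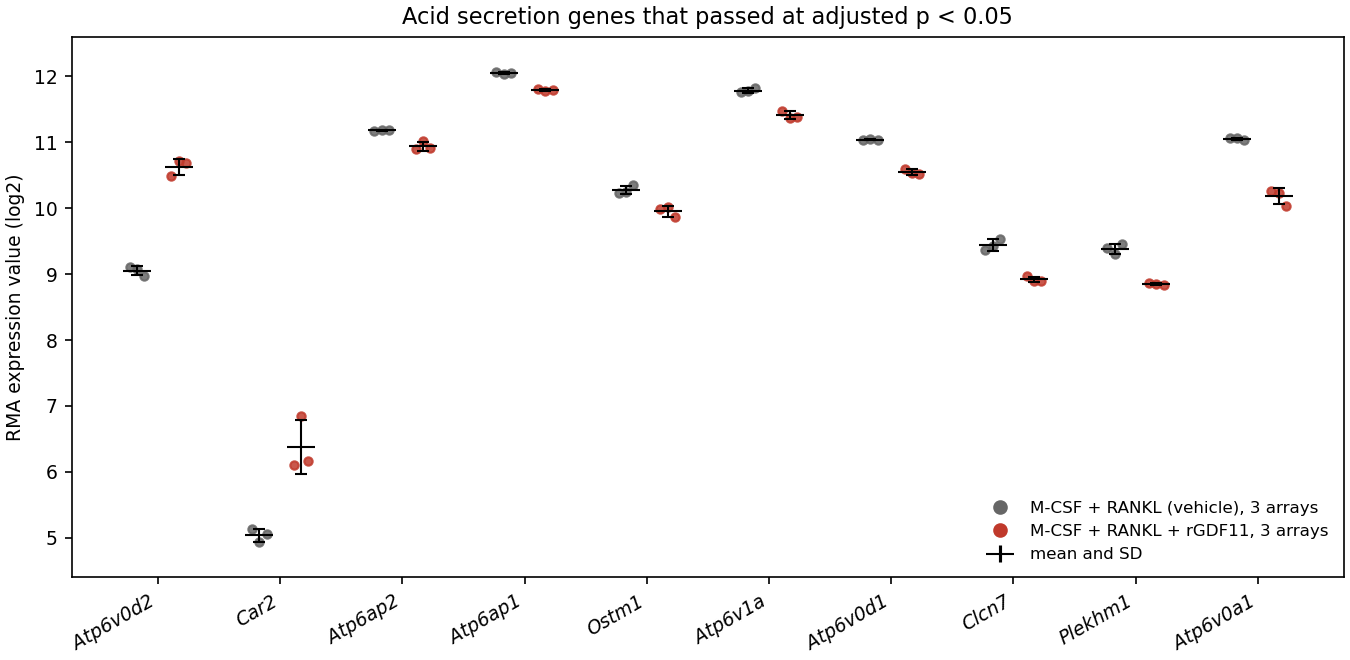
Log2 levels on each of the 3 vehicle and 3 rGDF11 arrays for the 10 genes that passed the test. Each point is an array, and bars give mean and SD. The groups are separate in every one of the 10 genes. The genes were picked by the test on these same arrays, so that separation is no further evidence. Among all probe sets tested 32.9% were separate in this way. The 3 rGDF11 values of Car2 are the most spread.

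Of the osteoclast isoforms 1 of 2 rose and none fell in limma, and of the housekeeping isoforms 2 of 3 fell. Of all probe sets above the median level, where these isoforms lie, 12.1% rose and 15.1% fell. Whether the 2 classes of isoform differ was not tested, and the counts are too small to show it. The balance between isoforms was followed as a log2 ratio within each array. Because 2 probe sets differ in brightness for reasons of sequence, only the change of a ratio can be read, not its level. The ratio of Atp6v0d2 to Atp6v0d1 was −1.93, −1.98 and −2.07 on the vehicle arrays and −0.11, 0.18 and 0.17 on the rGDF11 arrays. It shifted by 2.08 (SE 0.10), a 4.22-fold change, and the groups did not overlap. The ratio of Tcirg1 to Atp6v0a1 was −0.25, −0.26 and −0.10 with vehicle and 0.55, 0.57 and 0.85 with rGDF11, a shift of 0.86 (SE 0.11, 1.81-fold) with Tcirg1 almost level and Atp6v0a1 lower. The ratio of Tcirg1 to Atp6v0a2 moved from 1.52, 1.49 and 1.54 to 1.60, 1.58 and 1.67, a shift of 0.10 (SE 0.03, 1.07-fold). With the mean of the probe sets of each gene that last shift turned to −0.04. For each of the 3 ratios the exact permutation test (two-sided) gave p = 0.1, which is the smallest that 3 against 3 arrays allow, and p = 0.1 after adjustment over the 3 ratios.

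**Figure D3:**
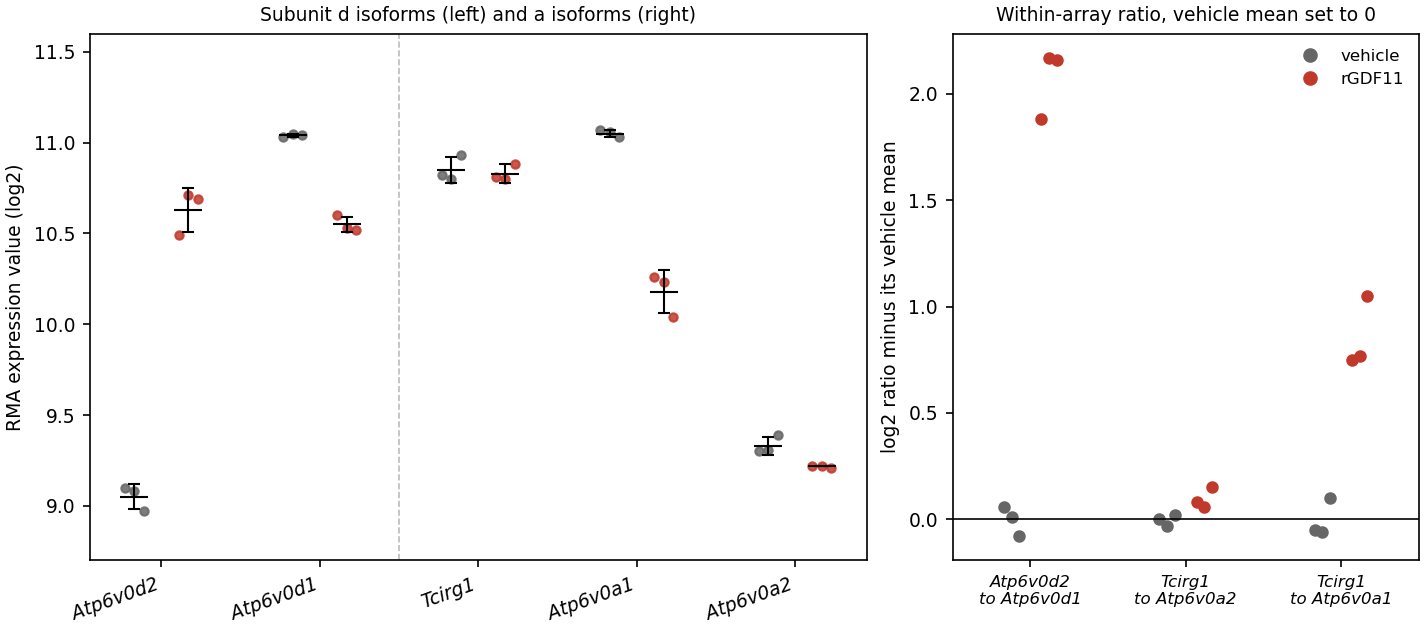
Left, log2 levels of the isoforms of the a and d subunits on each array. Bars on the left give mean and SD (n = 3). Right, log2 ratios of osteoclast to housekeeping isoforms within each array, drawn with the vehicle mean set to 0. As measured, the ratio of Atp6v0d2 to Atp6v0d1 moved from a mean of −1.99 to 0.08, and that of Tcirg1 to Atp6v0a2 from 1.52 to 1.61.

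The remaining V0 genes did not pass. Atp6v0b, a further subunit of the proteolipid ring, had a change of −0.06 (interval −0.21 to 0.09, adjusted p = 0.603), and the small e subunit genes Atp6v0e and Atp6v0e2 had changes of 0.13 and 0.00. In all, 1 of the 9 measured V0 genes rose, 2 fell and 6 did not pass, with a median of −0.02. In the V1 sector, which has 13 genes, the counts were 0 higher, 1 lower and 12 that missed the threshold, and the median was −0.09. At an unadjusted p under 0.05, 0 V1 genes were higher and 3 lower, both in limma and by the methods' t-test. Whether the sectors differ was not tested, since the genes were chosen with earlier results known. Counting only genes above the median level, 1 of 7 V0 genes rose and 2 fell, and 1 of 9 V1 genes fell. Of all probe sets above the median level, 12.1% rose and 15.1% fell, and counts this small cannot be told from those shares.

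The V1 gene that fell was Atp6v1a, which encodes the catalytic A subunit where ATP is split. It read 11.76, 11.77 and 11.83 with vehicle and 11.48, 11.37 and 11.38 with rGDF11. The groups did not overlap, and the fall was 1.30-fold (log2 −0.38, SE 0.06, adjusted p = 0.00542). Its partner in the catalytic ring, Atp6v1b2, the B subunit of most cells, had a change of −0.12 (adjusted p = 0.257). Atp6v1c1 and Atp6v1h, whose products join V1 to V0 and take part in their regulated release, had changes of −0.18 (interval −0.32 to −0.04, adjusted p = 0.0833) and −0.22 (interval −0.41 to −0.03, adjusted p = 0.131). Both passed when the spread was allowed to depend on intensity and when dim probe sets were left out of the fit. The stalk genes Atp6v1d, Atp6v1e1, Atp6v1f and Atp6v1g1 had changes of −0.01, −0.17, −0.09 and 0.12, none of which passed. The other probe sets of Atp6v1f and Atp6v1g1 gave −0.13 and 0.13, with the same signs.

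Of the isoforms used mainly in kidney, testis or brain (Atp6v0a4, Atp6v1b1, Atp6v1c2, Atp6v1e2, Atp6v1g2 and Atp6v1g3), 0 of 6 passed in limma, and their changes ranged from −0.13 to 0.14. Among all probe sets tested 16.0% passed, and a count of 0 of 6 cannot be told from that share. At an unadjusted p under 0.05, 0 of 6 passed in limma and 0 of 6 by the methods' t-test. Averaged over the 6 genes, the level of an array was 5.45 to 5.62 with vehicle and 5.46 to 5.61 with rGDF11. These averages lay below the median of the tested probe sets, although Atp6v1g2, with a mean level of 6.94, lay above it.

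Both accessory subunits were lower. Atp6ap1, which takes part in assembly of the pump and its targeting, read 12.06, 12.03 and 12.05 with vehicle and 11.81, 11.78 and 11.79 with rGDF11 (log2 −0.25, SE 0.06, adjusted p = 0.0202). Atp6ap2, the prorenin receptor, read 11.17, 11.19 and 11.19 with vehicle and 10.89, 11.02 and 10.92 with rGDF11 (log2 −0.24, SE 0.06, adjusted p = 0.0385). These are the smallest changes that passed. The call of Atp6ap1 was lost when any array was left out (adjusted p 0.0564 to 0.0661), and that of Atp6ap2 was lost when any array but rGDF11 replicate 2 was left out (adjusted p up to 0.141). The latter was lost as well with all rows of the array tested (0.0733) or with each array centred on its median (0.0627).

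Chloride follows protons so that the membrane voltage does not stop the pump. Clcn7, the chloride-proton exchanger of lysosomes and the ruffled border, read 9.36, 9.42 and 9.53 with vehicle and 8.97, 8.90 and 8.90 with rGDF11. The groups lay apart, and the fall was 1.43-fold (log2 −0.51, SE 0.07, adjusted p = 0.00172). Ostm1, the β-subunit that stabilises ClC-7, read 10.23, 10.25 and 10.35 with vehicle and 9.98, 10.01 and 9.86 with rGDF11, again without overlap. Its fall was 1.25-fold (log2 −0.33, SE 0.07, adjusted p = 0.0163). That call was lost without rGDF11 replicate 1 (adjusted p = 0.0503), rGDF11 replicate 3 (0.0529) or vehicle replicate 3 (0.064). Of the endosomal relatives, Clcn3 and Clcn5 had changes of 0.02 and −0.02, and Clcn6, a late endosomal exchanger, had −0.20 (interval −0.38 to −0.03, adjusted p = 0.122).

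Carbonic anhydrase II makes the protons from carbon dioxide and water. Car2 read 5.13, 4.93 and 5.06 with vehicle and 6.11, 6.85 and 6.16 with rGDF11, a dim signal in both groups. The vehicle mean of 5.04 was near the lower quartile of all probe sets tested (4.69) and has not been shown to lie above background, so the fold describes the deposited values only. Every rGDF11 value was higher than every vehicle value, and replicate 2 was the highest. The rise was 1.34 on the log2 scale (SE 0.19, adjusted p = 0.00224, interval 0.90 to 1.77), ranking 72 by size among 23410 probe sets, and it was 1.10 without rGDF11 replicate 2. Slc4a2, the exchanger that carries the bicarbonate out of the cell, read 8.24, 8.38 and 8.40 with vehicle and 8.37, 8.44 and 8.39 with rGDF11. Those groups overlapped, and the change was 0.07 (interval −0.09 to 0.23, adjusted p = 0.603).

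The ruffled border forms when lysosomes fuse with the membrane facing bone. Plekhm1, an adaptor that links lysosomes to Rab7 and to the fusion machinery, read 9.39, 9.31 and 9.45 with vehicle and 8.87, 8.85 and 8.83 with rGDF11. The rGDF11 values lay close together and below every vehicle value. The fall was 1.45-fold (log2 −0.53, SE 0.06, adjusted p = 0.00103). Snx10, a sorting nexin that binds the pump, had a change of 0.01 (interval −0.15 to 0.18, adjusted p = 0.948).

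Promoter sequence is shown because the factors of the MiT family, Mitf, Tfeb, Tfe3 and Tfec, are known to switch on lysosomal and V-ATPase genes through the E-box CACGTG. RefSeq windows from 250 bases before to 50 bases after the start (GRCm38.p6) were at hand for 27 of the 34 genes, and not for Atp6v0a2, Atp6v0d2, Atp6v1b2, Atp6v1c1, Atp6v1g1, Atp6v1h and Car2. The letters CACGTG, which read the same on both strands, stood in the window of 6 of the 27 genes and of 8.09% of all 27025 genes with a window. They were found in 3 of the 8 genes that fell (Atp6v0d1, Atp6v1a and Clcn7) and in 3 of the 18 measured genes with a window that did not pass (Atp6v0b, Atp6v0e and Clcn6). A stretch of 30 bases around a match is given for each of the 3 that fell and, for contrast, for Atp6v0b and Atp6v0e, with the E-box in capitals. They lie at chr8:105566050-105566079 (minus strand), chr16:44139373-44139402 (minus), chr17:25133364-25133393 (plus), chr4:117887348-117887377 (minus) and chr17:26676387-26676416 (plus), in the order printed.
Atp6v0d1: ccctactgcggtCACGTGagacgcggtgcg
Atp6v1a: ttttttttaaatCACGTGataggcttaacg
Clcn7: tccgtcgtcagtCACGTGggcaccgatgat
Atp6v0b: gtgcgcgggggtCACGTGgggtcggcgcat
Atp6v0e: tagcgcgccgatCACGTGagcctctgttga

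Counted from the RefSeq start as position 0, the first base of the E-box lay at −3 in Atp6v0d1, −131 in Atp6v1a, −15 in Clcn7, −36 in Atp6v0b and 3 in Atp6v0e. Clcn7, which fell, held a further E-box at 7, and of the genes that did not pass Atp6v0b held a further E-box at −18 and Clcn6 held a pair at −48 and −25. A match is a description of the letters and no evidence of binding, and such E-boxes stood both in genes that fell and in genes that did not pass. On either strand the other letters searched were CATGTG (the M-box), found in 4 of the 27 genes and 15.9% of all genes, TGANTCA (AP-1) in 2 and 8.97%, CAGAC (the Smad2/3 element) in 15 and 53.2%, and TGGAAA (NFAT) in 6 and 23.9%. TGGAAA stood in 4 of the 8 genes that fell and in 2 of the 18 that did not pass. For CAGAC these counts were 5 of 8 and 10 of 18, for CATGTG 1 of 8 and 2 of 18, and for TGANTCA 1 of 8 and 1 of 18. No difference between these counts was tested. None of these motifs contains another.

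The MiT factors themselves were measured. Tfec, the member expressed mainly in macrophages, fell from a mean of 9.91 to 9.36 (log2 −0.55, adjusted p = 0.00155). Mitf, needed for osteoclast differentiation, had a change of 0.23 (adjusted p = 0.052), and Tfe3 and Tfeb had −0.09 and −0.16, none of which passed.

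Other genes that assemble or regulate the V-ATPase changed in both directions: 2 rose, 5 fell and 7 of the 14 measured did not pass, with a median of −0.05. Among all probe sets tested 7.31% rose and 8.64% fell. Dmxl2, a rabconnectin that promotes joining of V1 to V0, rose from 6.82 to 7.58 (log2 0.77, SE 0.11, adjusted p = 0.00214). Vma21, the chaperone that assembles V0 in the endoplasmic reticulum, fell from 10.54 to 10.01 (−0.53, adjusted p = 0.0035). Oxr1 and Ncoa7, TLDc-domain proteins that bind V1, fell by 0.43 and 0.42 on the log2 scale (adjusted p = 0.00586 and 0.00402).

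Outside the V-ATPase, other genes of proton and bicarbonate handling showed 2 that rose, 3 that fell and 15 that did not pass among 20 measured of 23, with a median of 0.01. For this list and the next, the shares among all probe sets tested were 7.31% higher and 8.64% lower. Car5b, a mitochondrial carbonic anhydrase, fell from 10.74 to 9.44, or 2.47-fold (adjusted p = 2.87e-05), and Car13, a cytosolic one, fell by 0.77 (adjusted p = 0.000404). Carbonic anhydrase genes thus did not move as a group, with Car2 higher and both of these lower. Slc9a9, an endosomal sodium-proton exchanger, fell by 0.68 (adjusted p = 0.000657), and Slc16a1, the lactate-proton transporter MCT1, rose by 0.57 (adjusted p = 0.00427). Of 14 genes of lysosome traffic to the ruffled border, 12 were measured, of which 0 rose and 2 fell, and the latter were Rab3d (−0.50, adjusted p = 0.0202), a GTPase of post-Golgi vesicles in osteoclasts, and Vps35 (−0.32, adjusted p = 0.0163), the core of retromer. At an unadjusted p under 0.05, 1 gene of that list was higher and 3 lower in limma, and 1 higher and 4 lower by the methods' t-test.

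**Figure D4:**
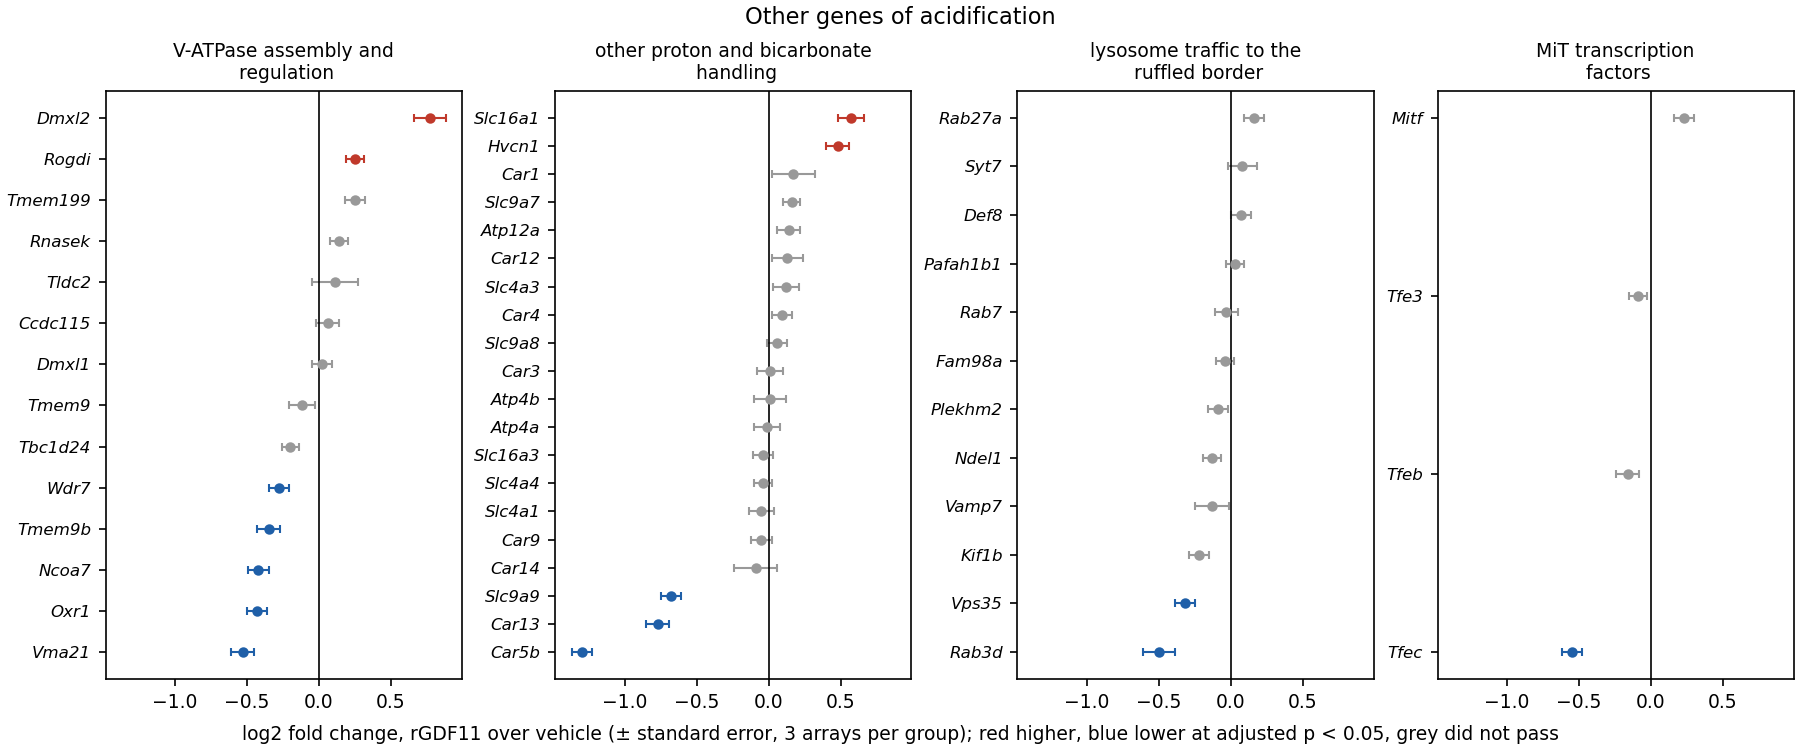
Log2 fold change (rGDF11 over vehicle) of every measured gene in the 4 lists around the pump, 1 point per gene with its standard error, the genes that passed at an adjusted p under 0.05 in red (higher) or blue (lower). Points lie on both sides of 0 in each list, and Car5b (−1.30) is the lowest.

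Markers of some cell types, though not of all, moved with these changes, and their part in them was not tested. The counts below stand beside 7.31% higher and 8.64% lower among all probe sets tested. Macrophage markers marked the cultures as the label says, with means of 12.12 for Csf1r and 13.05 for Lyz2 with vehicle. Of 7 such markers 4 fell, Fcgr3 by 0.53 and Adgre1 by 0.51 among them, and their mean level was 11.54 to 11.59 on the vehicle arrays and 11.30 to 11.37 on the rGDF11 arrays. Of 8 osteoclast markers 5 rose, with Acp5 (tartrate-resistant acid phosphatase) at 1.87 and Nfatc1 (the master transcription factor) at 1.33, and Mmp9 fell by 0.62. Their mean level was 7.18 to 7.24 with vehicle and 7.86 to 7.99 with rGDF11. Of 9 stromal and osteoblast markers 7 were measured and 4 rose, Col1a1 by 0.63 among them, at a mean level of 5.99 to 6.18 with vehicle and 6.45 to 6.55 with rGDF11. Of 8 neutrophil markers 2 rose (mean level 6.25 to 6.27, then 6.52 to 6.55), of 6 erythroid markers measured (of 8) 1 rose (5.03 to 5.17, then 5.11 to 5.29), of 5 B cell markers measured (of 6) 1 fell (4.96 to 5.08, then 4.76 to 4.89) and of 5 T cell markers measured (of 6) 0 passed (4.74 to 5.10, then 4.90 to 5.05). Car2 is known to be abundant in red cells too. Of the erythroid markers, Alas2, which starts haem synthesis there, rose from a mean of 4.89 to 5.12 (log2 0.23, adjusted p = 0.0463), and Ermap went from 5.32 to 5.63 without overlap between the groups (0.31, adjusted p = 0.124). Both are dim, below the median level, and neither has been shown to lie above background. The groups overlapped for Klf1, Epor, Slc4a1 and Epb42. The 6 reference genes measured (of 8) ranged from −0.11 to 0.11, and 0 of them passed in limma. At an unadjusted p under 0.05, 0 T cell markers and 0 reference genes differed in limma, and 0 and 1 by the methods' t-test.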

How the data were processed

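Gene expression was measured in 6 samples, 3 treated with vehicle and 3 with rGDF11, on Affymetrix Mouse Gene 1.0 ST arrays. The deposited values are log2 levels that the authors made by RMA, which corrects background, normalizes the arrays together and summarizes probes into probe sets. The methods name Affymetrix Expression Console, with no version given, and the submitters' processing notes name Transcriptome Analysis Console 3.0. The normalization is already in the values, so a change common to most genes would not be seen. The number of arrays limits the precision.

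Of 35556 probe sets, 21789 carried 1 gene symbol in the platform annotation, 1621 several and 12146 none. Symbols were checked against a gene table of GRCm38.p6, which held 21698 of the 21789 and changed 0. The 23410 probe sets with a symbol were tested by lmFit and eBayes of limma 3.58.1 (two-sided, R 4.3.3) with Benjamini-Hochberg adjustment. A gene was read from the brightest probe set that carried its symbol alone. The fit had 4 residual and 3.67 prior degrees of freedom. Within a group, arrays correlated at 0.997 to 0.998 across probe sets, and between groups at 0.989 to 0.991, and array medians lay between 6.11 and 6.18. The fit was tested on simulated data.

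The genes, the lists around them and the tests were chosen with earlier results of these data known. Every gene of the pump and acid secretion list is accounted for, and genes of the other lists that were not analysed here are left out of the counts. Values on each array are given for genes that passed with a change of at least 0.3 on the log2 scale, for the isoforms in a ratio and where 2 probe sets disagree, and up to 4 genes that passed are named for each list around the pump. The array values of Atp6ap1, Atp6ap2 and Slc4a2 were added after their values were seen. Alternatives covered the rows tested, dim rows, 2 normalizations, the probe set per gene, the spread, the methods' t-test and threshold, the replicate number and each array left out. Promoter windows were taken from RefSeq.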

Additional observations from a re-analysis of the deposited data

How the results depend on the processing

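The number of genes that rose was 2 under every alternative but 2. It was 1 among rows brighter than the median, where Car2 was not in the fit, and 3 with an intensity trend in the spread, where Atp6v0e also passed. The number that fell was 8 and became 1 at the methods' threshold, by limma and by the methods' t-test, the latter chosen after seeing the data. It ranged from 5 to 7 with 1 array left out, with 5 without rGDF11 replicate 1 and without rGDF11 replicate 3, and was 11 with an intensity trend and 11 among rows brighter than the median. Atp6v0a1, Atp6v0d1, Atp6v0d2, Atp6v1a, Clcn7 and Plekhm1 passed in all 15 alternative fits and Car2 in all 14 that held it. The calls of Atp6ap1, Atp6ap2 and Ostm1 were each lost in 1 or more, and 5 genes that did not pass gained a call in 1 or more (Atp6v0e, Atp6v1b2, Atp6v1c1, Atp6v1h and Clcn6). The cause was not tested.

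The sign turned in genes that did not pass and whose change lay near 0. With quantile normalization the log2 change was 0.04 in Tcirg1, 0.04 in Atp6v1d, 0.00 in Atp6v0a4 and 0.00 in Clcn5, and with median centring it was 0.00 in Snx10. With the mean of probe sets it was 0.02 in Atp6v0a2, and the ratio of Tcirg1 to Atp6v0a2 shifted by −0.04 (exact permutation p = 0.6). With each array left out in turn the change ranged from −0.01 to 0.07 in Atp6v0a4, −0.05 to 0.02 in Tcirg1, −0.06 to 0.10 in Atp6v0e2, −0.02 to 0.10 in Atp6v1c2, −0.04 to 0.03 in Atp6v1d, −0.09 to 0.06 in Atp6v1e2, 0.00 to 0.24 in Atp6v1g2, 0.00 to 0.03 in Clcn3, −0.06 to 0.01 in Clcn5 and −0.03 to 0.05 in Snx10. The V1 median then ranged from −0.12 to −0.05 and the V0 median from −0.06 to 0.00, and the ranges meet.

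The labels number the replicates alike in both groups. Deviations of same-numbered arrays from their group means correlated at 0.0635, 0.335 and −0.000832 across probe sets. Those of differently numbered arrays correlated at −0.322 to 0.275, so the value of replicate 2 was the highest. These values do not settle whether same-numbered arrays share more than a number. The main fit did not use the number. With the replicate block 2 genes rose and 7 fell (Atp6ap2 had an adjusted p of 0.0599), and the ratios shifted by 2.08, 0.10 and 0.86, each with an exact p of 0.25, the smallest that 3 pairs allow. No background level was available, so the 7 genes below the median have not been shown to lie above background. That limits what can be said of them.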
